A study of Homo sapiens with 6 samples.

Results

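Genes for the subunits of the respiratory chain and ATP synthase that are encoded in the nucleus were examined in ARPE-19, a long-established line of human retinal pigment epithelium (RPE). They were taken as every protein-coding row whose symbol starts with NDUFA, NDUFB, NDUFC, NDUFS, NDUFV, SDHA to SDHD, UQCR, COX4I, COX5, COX6, COX7, COX8 or ATP5, without the assembly factors NDUFAF and SDHAF. This gave 91 genes of 58735 in the table, with 38 assigned to complex I, 4 to complex II, 9 to complex III, 19 to complex IV and 21 to complex V. NDUFA4 and NDUFA4L2 were counted with complex IV, where the NDUFA4 protein is now placed. OE_CD51_ICD comprised 3 libraries from cells that overexpressed CD51-ICD, and NC comprised 3 libraries from control cells labelled WT. CD51 is integrin alpha V, the product of ITGAV, and ICD is not spelled out in the labels. The comparison asks which transcripts differ when CD51-ICD is overexpressed. The labels give neither the vector, the time after its introduction nor the number of clones, and do not state whether the libraries of each group stem from separate cultures. Each p-value thus reflects library-to-library spread alone, which may be technical.

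Complex I takes electrons from NADH and complex II takes them from succinate. Both hand them over to ubiquinone, from which they pass through complex III and cytochrome c to complex IV, where oxygen is reduced. The proton gradient built on the way drives ATP synthase, complex V. RPE is known as a tissue with high oxidative metabolism, and mitochondrial decline in RPE has been linked to macular degeneration.

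Total counts per library were between 13616694 and 16934668. Levels are in CPM, read counts relative to the TMM-adjusted size of a library, in the order of libraries 1 to 3 of each group. ITGAV, the gene of CD51, had 436, 536 and 371 CPM in OE_CD51_ICD, against 113, 92.7 and 89.3 CPM in NC. The groups did not overlap, and ITGAV was 4.54-fold higher in OE_CD51_ICD by edgeR's quasi-likelihood test with Benjamini-Hochberg adjustment over all tested genes, at a log2 fold change of 2.18 (SE 0.11, adjusted p = 1.47e-16). Whole-gene counts do not separate a construct from the gene's own transcript. Of 12 RPE markers, 7 passed the filter on low counts, and RPE65 and TTR were at 0 counts in every library. Of the 7 tested, 1 was lower and 2 were higher, beside 25.8% lower and 25.2% higher among all tested genes. The 9 microglia and macrophage markers summed to 0.429 to 0.957 CPM in OE_CD51_ICD and 0.463 to 0.541 CPM in NC, with P2RY12 and TREM2 at 0. Of 6 fibroblast markers, 1 passed the filter, PDGFRB, which was higher by 0.80 on the log2 scale (SE 0.08, adjusted p = 8.92e-10), and DCN was at 0. The part of PDGFRB and the RPE markers in the results on subunit genes was not tested.

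Subunit genes that passed the test were mostly and modestly lower in OE_CD51_ICD. Of the 91 genes, 80 passed the filter and were tested, of which 28 were lower, 3 were higher and 49 did not pass an adjusted p of 0.05. Lower genes made up 35.0% of those tested, and the background share of lower genes among all 13787 tested genes was 25.8%. Higher genes made up 3.75%, beside a background of 25.2%. Among the 12137 tested protein-coding genes, the kind to which all subunit genes belong, 28.1% were lower and 25.7% were higher. Of the 80, 69 had a log2 fold change below 0 and the median was -0.17, whereas the median of all tested genes was 0.01 and 49.2% lay below 0. The 49 that missed the threshold spanned log2 fold changes of -0.47 to 0.19. A p that misses the threshold does not show that a gene's levels did not differ.

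The falls were small. The 28 lower genes had log2 fold changes of -0.21 to -0.76, with a median decrease of 21.5%. A change of at least 1.5-fold was reached by 2 lower genes, NDUFA5 and ATP5MC1, beside 13.3% of all tested genes, and by 1 higher gene, COX7A1, beside 15.2%. In all, 77 of 80 subunit genes (96.3%) lay within 1.5-fold of NC, and 68.0% of all tested genes did so. The 3 OE_CD51_ICD libraries lay below all NC libraries for 28 of the 80 genes, beside a background of 29.5%, and above them for 3, beside 28%. Of the 28 lower genes, 23 had groups that did not overlap and 5 had groups that did.

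**Figure D1:**
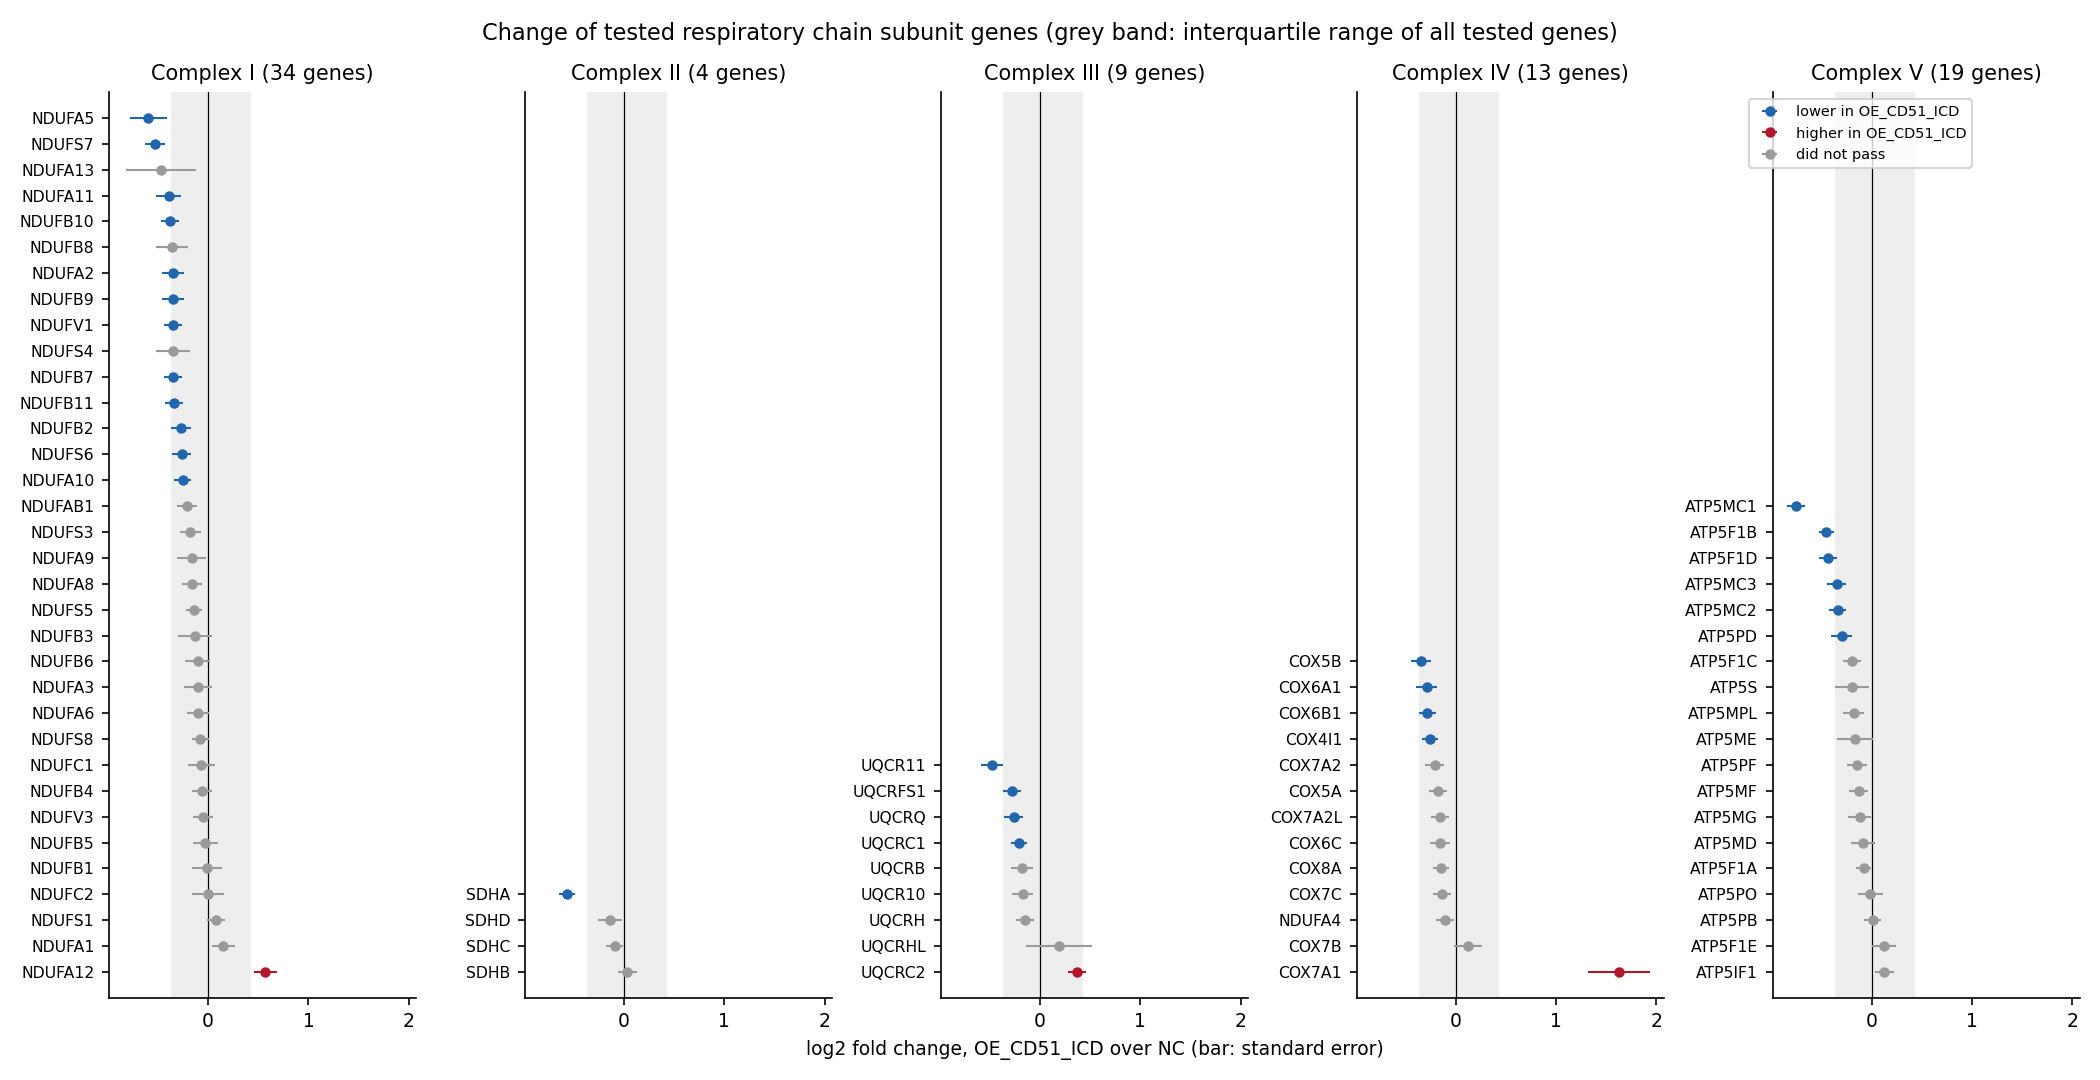
Change of tested subunit genes by complex, without 1 gene that is not reported here. Each point is a gene's log2 fold change of OE_CD51_ICD over NC with its standard error, blue where it was lower, red where it was higher and grey where it did not pass an adjusted p of 0.05, and the grey band spans the interquartile range of all tested genes. Most points lie left of 0, and COX7A1 at 1.62 lies farthest to the right.

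Libraries within a group differed in these genes. Of the 3 OE_CD51_ICD libraries, library 3 was the highest for 60 of the 80 genes and library 2 the lowest for 51. In NC, library 3 was the lowest for 45 genes, and its mitochondrially encoded share of all counts was 5.07%, while the other 5 libraries had 3.60% to 4.07%. Without OE_CD51_ICD library 3, 37 subunit genes were lower, which is 46.3% of those tested beside 25.9% of all genes. Without OE_CD51_ICD library 1, 18 were lower, all of them among the 28, and their share of 22.5% was near the 20.9% of all genes. The shares were also near each other without OE_CD51_ICD library 2 (23.75% of subunit genes beside 22.03% of all genes) and without NC library 2 (26.3% beside 22.7%). The part of these library differences in the calls was not tested.

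As a share of all counts, subunit genes took 0.564%, 0.558% and 0.613% in OE_CD51_ICD libraries 1 to 3, against 0.722%, 0.733% and 0.689% in NC libraries 1 to 3. Their summed FPKM, the authors' length-scaled level, was 2633, 2443 and 2904 in OE_CD51_ICD, against 3211, 3159 and 3063 in NC. Both measures were lower in each OE_CD51_ICD library than in any NC library. In bulk RNA, fewer cells of a kind and less of a transcript per cell cannot be told apart. Per length, the most abundant subunit transcript was ATP5F1B, at a mean FPKM of 298 in OE_CD51_ICD and 409 in NC. In NC it was followed by COX8A at 263 and NDUFS5 at 261. The length is that listed for the whole gene, 507 bases for COX8A and 548 for NDUFS5 but 10908 for ATP5F1A. This order therefore depends on the listed lengths. By CPM, ATP5F1A had a mean of 443 in NC and COX8A one of 134. The median over the 80 tested genes was 21.9 FPKM in NC.

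**Figure D2:**
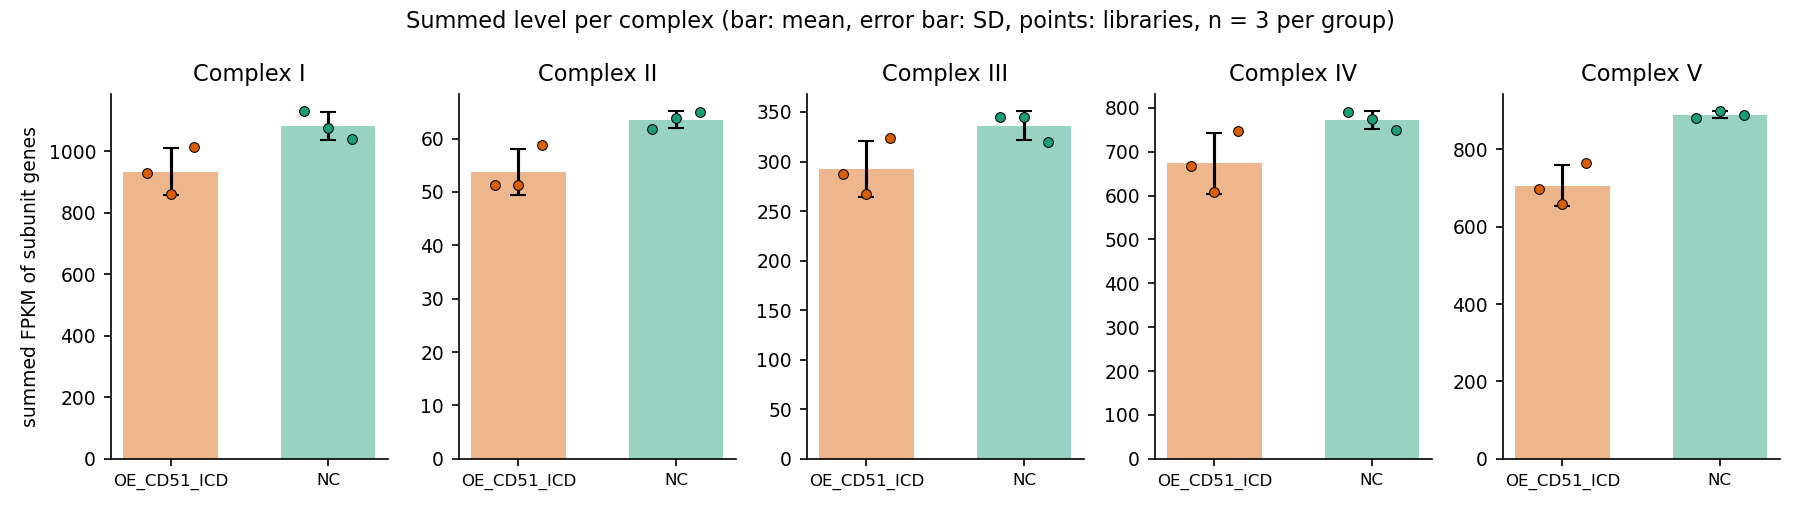
Summed FPKM of the subunit genes of each complex. Bars are means and error bars SD over 3 libraries per group, and points are libraries. Complex V sums to 706 ± 53.6 in OE_CD51_ICD and 890 ± 8.92 in NC. Of these sums, ATP5F1B alone holds 298 in OE_CD51_ICD and 409 in NC. The complex V genes other than the ATP5F1 and ATP5MC genes hold 185 in OE_CD51_ICD and 198 in NC.

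In complex I, 13 of 35 tested genes were lower (37.1%, beside 25.8% of all tested genes). Higher genes numbered 1 (2.86%, beside 25.2%), and the median log2 fold change was -0.18. The products of the 7 core genes carry the flavin, the iron-sulfur clusters and the quinone site. Of the 6 core genes tested, 3 were lower (50%, beside 25.8% of all tested genes). NDUFS7, whose product holds the iron-sulfur cluster nearest to ubiquinone, had 32.3, 33.97 and 36.8 CPM in OE_CD51_ICD, against 50.4, 50.1 and 47.9 CPM in NC. Every OE_CD51_ICD library lay below every NC library, and NDUFS7 fell by 0.53 on the log2 scale (SE 0.10, adjusted p = 5.18e-05). NDUFS7 shares 49.1% of its exon bases with AC005329.1 and AC005329.3 on the opposite strand. Whether their reads were kept apart from its own is not known, since the strand setting is not given. NDUFV1, which binds the flavin that accepts electrons from NADH, had 149.9, 131 and 179 CPM in OE_CD51_ICD, against 199.5, 194 and 194 CPM in NC. The groups were apart and NDUFV1 fell by 0.35 on the log2 scale (SE 0.09, adjusted p = 0.00174), a call that was lost when each library's trend with GC content was removed (adjusted p = 0.178).

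Among core genes that did not pass, NDUFS1, the largest iron-sulfur subunit, had a log2 fold change of 0.08 (SE 0.09, adjusted p = 0.491), which was -0.12 with the GC trend and -0.17 with the trend with gene length removed. The quinone-arm subunits NDUFS3 and NDUFS8 were at -0.18 and -0.08. NDUFV2, the other core member of the NADH-oxidising arm, had only 23 counts in OE_CD51_ICD and 10 in NC and was not tested. It shares 28.4% of its exon bases with AP005263.1 on the same strand, and its processed pseudogene NDUFV2P1 held 34 counts in each group. NDUFA7, with 18 counts in OE_CD51_ICD and 16 in NC, shares 33.5% of its exon bases with other genes, and NDUFA13, with 63 counts in OE_CD51_ICD and 93 in NC, shares 21.0%. Whether shared bases hold down these counts was not tested.

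Of the 29 accessory genes tested, 10 were lower (34.5%, beside 25.8% of all tested genes). NDUFA5, a matrix-arm subunit, had 6.85, 10.7 and 8.80 CPM in OE_CD51_ICD, against 15.4, 15.1 and 9.26 CPM in NC. The groups overlapped through NC library 3, and NDUFA5 fell by 0.60 on the log2 scale (SE 0.19, adjusted p = 0.00864). Leaving out NC library 2 or OE_CD51_ICD library 1 ended this call (adjusted p = 0.054 and 0.0646). NDUFA11, in the membrane arm, had 19.7, 19.3 and 24.96 CPM in OE_CD51_ICD, against 30.4, 24.4 and 29.1 CPM in NC. OE_CD51_ICD library 3 lay above NC library 2, and NDUFA11 fell by 0.39 on the log2 scale (SE 0.13, adjusted p = 0.0100). With the GC trend removed, the log2 fold change of NDUFA11 was -0.11 and its call was lost (adjusted p = 0.42). It also lost its call when OE_CD51_ICD library 1 or 2 or NC library 1 was left out, with adjusted p of 0.0702, 0.0568 and 0.0551. NDUFB10, also of the membrane arm, had 71.4, 66.98 and 82.3 CPM in OE_CD51_ICD, against 100.4, 96.8 and 90.3 CPM in NC. Here the groups did not overlap, and the decrease was 0.38 on the log2 scale (SE 0.09, adjusted p = 7.56e-04). With the GC trend removed it was -0.15 and did not pass (adjusted p = 0.0789). The other lower accessory genes were NDUFA2, NDUFB9, NDUFB7, NDUFB11, NDUFB2, NDUFS6 and NDUFA10, between -0.35 and -0.26 on the log2 scale, and each of these 7 calls was lost under at least 1 alternative. Leaving out OE_CD51_ICD library 1 ended the calls of NDUFA2, NDUFB9, NDUFB2 and NDUFS6, and leaving out NC library 2 those of NDUFB2, NDUFS6 and NDUFA10. Among the 11 NDUFB genes, all of the membrane arm, 5 were lower (45.5%, beside 25.8% of all tested genes). None was higher, beside 25.2% of all tested genes.

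NDUFA12 went the other way. This accessory subunit is a relative of the assembly factor NDUFAF2, and its gene had 32.7, 32.7 and 37.4 CPM in OE_CD51_ICD, against 24.2, 24.6 and 20.4 CPM in NC. No OE_CD51_ICD value overlapped an NC value, and NDUFA12 rose by 0.57 on the log2 scale (SE 0.11, adjusted p = 1.21e-04).

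Complex II links the respiratory chain to the TCA cycle, and 1 of its 4 genes was lower (25%, beside 25.8% of all tested genes). SDHA (ENSG00000073578, chromosome 5, 218241 to 256700), the flavoprotein that oxidises succinate, had 146, 141 and 163 CPM in OE_CD51_ICD, against 217, 216 and 234 CPM in NC. All OE_CD51_ICD libraries lay below all NC libraries, and SDHA fell by 0.57 on the log2 scale (SE 0.08, adjusted p = 8.91e-07). The annotated pseudogene SDHAP1 had 345 counts in OE_CD51_ICD and 249 in NC, and SDHAP3 had 89 in OE_CD51_ICD and 57 in NC, so counts listed for these copies were not lower where those of SDHA were. SDHB, the iron-sulfur subunit, had 47.9, 48.3 and 55.4 CPM in OE_CD51_ICD, against 47.6, 47.997 and 52.6 CPM in NC, with a log2 fold change of 0.03 (SE 0.10, adjusted p = 0.806). The membrane anchor SDHC had 94.7, 99.5 and 105 CPM in OE_CD51_ICD, against 102, 110.01 and 108 CPM in NC, with a log2 fold change of -0.09 (SE 0.08, adjusted p = 0.369). The other anchor, SDHD, had 23.4, 26.3 and 27.04 CPM in OE_CD51_ICD, against 28.5, 32.1 and 23.9 CPM in NC, with a log2 fold change of -0.14 (SE 0.12, adjusted p = 0.354). The groups overlapped for all 3 of these genes. With each library's GC trend removed, SDHC and SDHD were lower as well (log2 fold changes of -0.28 and -0.35, adjusted p = 0.00483 and 0.0112).

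In complex III, 4 of 9 genes were lower (44.4%, beside 25.8% of all tested genes). Higher genes numbered 1 (11.1%, beside 25.2%), and the median log2 fold change was -0.18. UQCR11, a small membrane subunit, had 29.4, 33.6 and 37.7 CPM in OE_CD51_ICD, against 49.5, 47.1 and 43.4 CPM in NC. With no overlap between the groups, UQCR11 fell by 0.48 on the log2 scale (SE 0.11, adjusted p = 4.15e-04). UQCRFS1, the Rieske iron-sulfur protein, had 69.2, 68.1 and 76.04 CPM in OE_CD51_ICD, against 86.6, 90.6 and 81.3 CPM in NC. It fell by 0.28 on the log2 scale (SE 0.09, adjusted p = 0.00897) with no overlap, and leaving out NC library 2 or OE_CD51_ICD library 1 ended the call (adjusted p = 0.0618 and 0.0794). UQCRQ, a small subunit at the quinone-binding region, had 79.1, 65.3 and 81.1 CPM in OE_CD51_ICD, against 97.3, 93.4 and 79.2 CPM in NC. It fell by 0.26 on the log2 scale (SE 0.10, adjusted p = 0.0251), although OE_CD51_ICD library 3 lay above NC library 3. This call was lost under 9 of 23 alternatives, among them leaving out NC library 1 or 2 or OE_CD51_ICD library 2 (adjusted p = 0.128, 0.0953 and 0.201). UQCRC2 and UQCRC1 encode the core proteins on the matrix side. UQCRC2 had 77.2, 80.6 and 71.2 CPM in OE_CD51_ICD, against 54.4, 61.8 and 60.9 CPM in NC, and it rose by 0.37 on the log2 scale (SE 0.09, adjusted p = 0.00106). UQCRC1 had 242, 234 and 279 CPM in OE_CD51_ICD, against 294, 286 and 294 CPM in NC, and it fell by 0.21 on the log2 scale (SE 0.08, adjusted p = 0.0307). Neither pair of groups overlapped. The call of UQCRC2 was kept under all 23 alternatives and that of UQCRC1 under 11. With the GC trend removed UQCRC1 was at 0.04 (adjusted p = 0.634), and its call was also lost without any 1 of the NC libraries or of OE_CD51_ICD libraries 1 and 2 (adjusted p = 0.0558 to 0.202). The count of lower complex III genes was 1 without NC library 2, 2 without NC library 1 or either of OE_CD51_ICD libraries 1 and 2, and 6 without OE_CD51_ICD library 3. UQCRHL, a retrogene copy of UQCRH, had 82 counts in OE_CD51_ICD and 75 in NC and did not pass, and its counts may include reads of UQCRH.

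Respiratory genes are known to be served by a few transcription factors, and the promoters of the 72 subunit genes present in the RefSeq promoter table (GRCh38.p14) were searched for their motifs. Each window ran from 250 bases before to 50 bases after the annotated start, and exact matches were sought on both strands for the core of the nuclear respiratory factor 1 motif with a single open base, CCGGAAG (ETS family, which includes GABPA), TCAAGGTCA (estrogen-related receptors) and AAGATGGC (YY1). The 250 bases before the start are shown for the complex II genes in that table and for the genes UQCR11 and NDUFA12, since these include the strongest fall of complexes II and III, genes that did not pass and a gene that rose. Capitals mark matches, of which none overlapped another in these 5 windows.
SDHA, chr5:218070-218319, plus strand: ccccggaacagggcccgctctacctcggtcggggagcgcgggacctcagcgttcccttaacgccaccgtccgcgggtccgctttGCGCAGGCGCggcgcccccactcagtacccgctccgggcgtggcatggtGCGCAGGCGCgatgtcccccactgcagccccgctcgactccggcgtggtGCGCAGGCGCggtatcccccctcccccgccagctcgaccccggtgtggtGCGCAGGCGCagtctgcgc
SDHB, chr1:17054033-17054282, minus strand: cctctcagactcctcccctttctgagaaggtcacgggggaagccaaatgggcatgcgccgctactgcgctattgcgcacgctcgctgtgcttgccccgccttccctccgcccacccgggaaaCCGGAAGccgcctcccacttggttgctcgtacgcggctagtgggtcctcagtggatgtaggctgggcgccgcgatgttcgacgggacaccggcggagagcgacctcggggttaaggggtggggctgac
SDHD, chr11:112086623-112086872, plus strand: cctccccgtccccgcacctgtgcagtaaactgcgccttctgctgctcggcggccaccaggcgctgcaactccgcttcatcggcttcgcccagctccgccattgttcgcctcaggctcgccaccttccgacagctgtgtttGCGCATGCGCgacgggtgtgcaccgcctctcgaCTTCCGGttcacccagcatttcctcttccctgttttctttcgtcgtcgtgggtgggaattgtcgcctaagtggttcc
UQCR11, chr19:1605463-1605712, minus strand: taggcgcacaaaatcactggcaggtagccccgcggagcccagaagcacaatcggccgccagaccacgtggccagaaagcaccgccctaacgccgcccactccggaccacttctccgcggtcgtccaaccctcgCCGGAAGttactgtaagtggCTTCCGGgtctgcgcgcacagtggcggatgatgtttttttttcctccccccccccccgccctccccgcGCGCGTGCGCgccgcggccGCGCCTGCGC
NDUFA12, chr12:95003698-95003947, minus strand: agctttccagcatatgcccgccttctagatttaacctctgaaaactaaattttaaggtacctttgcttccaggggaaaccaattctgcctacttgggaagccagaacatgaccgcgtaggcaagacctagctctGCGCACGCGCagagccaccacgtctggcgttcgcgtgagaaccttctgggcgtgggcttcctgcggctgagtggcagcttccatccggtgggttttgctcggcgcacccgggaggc
The SDHA promoter held 4 copies of the nuclear respiratory factor 1 motif, beginning 166, 117, 68 and 19 bases before the start, each 49 bases from the next. SDHD held 1 copy 110 bases before the start and an ETS motif 77 bases before it, and just past the start it held the only estrogen-related receptor motif among the 72. UQCR11 held 2 copies of each of the first 2 motifs. NDUFA12 held 1 nuclear respiratory factor 1 motif.

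Over the 72 promoters, the nuclear respiratory factor 1 motif was present in 17 (23.6%, beside 6.29% of all 27305 promoters) and the ETS motif in 20 (27.8%, beside 10.7%). The YY1 motif was in 11 (15.3%, beside 3.03%), and at least 1 of the 4 motifs in 39 (54.2%, beside 18.2%). Split by call, a motif was present in 13 of 23 promoters of lower genes, in 23 of 39 of genes that did not pass and in 1 of 2 of higher genes. ATP5MC1, the strongest fall, and UQCRC2, which rose, held none of the 4 in their windows. A match is a description of letters and not a measured site.

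In complex IV, 4 of 13 tested genes were lower, a share of 30.8% that was near the 25.8% of all tested genes. Higher genes numbered 1 (7.69%, beside 25.2%), and the median log2 fold change was -0.16. COX5B, a structural subunit, had 54.6, 50.5 and 62.7 CPM in OE_CD51_ICD, against 75.8, 70.3 and 67.3 CPM in NC. OE_CD51_ICD and NC libraries did not overlap, and COX5B fell by 0.35 on the log2 scale (SE 0.10, adjusted p = 0.00310). COX6B1, a subunit on the side where cytochrome c docks, had 88.4, 80.03 and 93.9 CPM in OE_CD51_ICD, against 107, 107 and 106 CPM in NC. It fell by 0.29 on the log2 scale (SE 0.09, adjusted p = 0.00598) with no overlap, and with the GC trend removed it was at -0.10 and did not pass (adjusted p = 0.192). COX6A1, the widely expressed form of subunit 6A, had 38.97, 37.2 and 48.3 CPM in OE_CD51_ICD, against 51.1, 50.1 and 50.9 CPM in NC, and it fell by 0.29 on the log2 scale (SE 0.10, adjusted p = 0.0199) with no overlap. COX4I1, the widely expressed form of subunit 4, had 259, 246 and 291 CPM in OE_CD51_ICD, against 324, 312 and 315 CPM in NC. Its groups were apart and it fell by 0.26 on the log2 scale (SE 0.08, adjusted p = 0.00814), and leaving out OE_CD51_ICD library 1 ended this call and that of COX6A1 (adjusted p = 0.0799 and 0.134), as did leaving out library 2 (adjusted p = 0.0554 and 0.127). The count of lower complex IV genes was 2 without OE_CD51_ICD library 1 or 2 and 9 without library 3. NDUFA4 was at 107, 100.1 and 104 CPM in OE_CD51_ICD, against 114, 122 and 99.96 CPM in NC, with a log2 fold change of -0.11 (SE 0.09, adjusted p = 0.307). COX7A2L, which helps to join complexes III and IV into supercomplexes, was at 93.2, 87.5 and 106 CPM in OE_CD51_ICD, against 103, 110.2 and 107 CPM in NC, with a log2 fold change of -0.16 (SE 0.09, adjusted p = 0.133). With the GC trend removed both were lower, each at -0.33 (adjusted p = 0.00206 for NDUFA4 and 0.00411 for COX7A2L), and COX7A2L was also lower without OE_CD51_ICD library 3 (-0.23, adjusted p = 0.0182) and under library-size scaling (-0.22, adjusted p = 0.0247).

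COX7A1 (ENSG00000161281, chromosome 19, 36150922 to 36152869) encodes the form of subunit 7A known from heart and skeletal muscle, and it had 3.23, 3.42 and 3.15 CPM in OE_CD51_ICD, against 1.33, 0.637 and 1.15 CPM in NC. Groups were apart in every library, and COX7A1 rose 3.08-fold, at a log2 fold change of 1.62 (SE 0.31, adjusted p = 6.40e-05). The level was low, with 143 counts in OE_CD51_ICD and 49 in NC. Per length it made up 7.40 ± 1.30% of the summed FPKM of COX7A1 and COX7A2 in OE_CD51_ICD and 2.12 ± 0.720% in NC (SD, n = 3 each). These shares depend on the listed gene lengths, 1006 bases for COX7A1 and 1922 for COX7A2. COX7A2, the widely expressed form, had 76.7, 68.7 and 92.7 CPM in OE_CD51_ICD, against 94.999, 93.2 and 87.3 CPM in NC, with a log2 fold change of -0.21 (SE 0.10, adjusted p = 0.0657), and its groups overlapped. Without OE_CD51_ICD library 3 it was lower by 0.33 on the log2 scale (adjusted p = 0.0017). Of 7 striated muscle markers none passed the filter, MYH7, MYH2 and TNNT2 were at 0, and their sum was 0.0715 to 0.205 CPM in OE_CD51_ICD and 0.174 to 0.425 CPM in NC. Other tissue-restricted forms stayed at or near 0, with 1 count of COX4I2, 2 of COX6A2 and 2 of COX6B2 in OE_CD51_ICD and none of any in NC. NDUFA4L2, a form linked to hypoxia, had 0 counts in OE_CD51_ICD and 3 in NC. COX8C and COX7B2 had 0 counts in all 6 libraries, which allows up to 3 counts each by counting error alone. ATP5MGL had 2 counts in OE_CD51_ICD and none in NC. The readthrough ATP5MF-PTCD1 was listed at 0 in every library and NDUFC2-KCTD14 at 1 count in OE_CD51_ICD and none in NC. They share 93.8% and 100% of their exon bases with other genes, so these listed counts depend on how shared reads were assigned, which is not described.

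**Figure D3:**
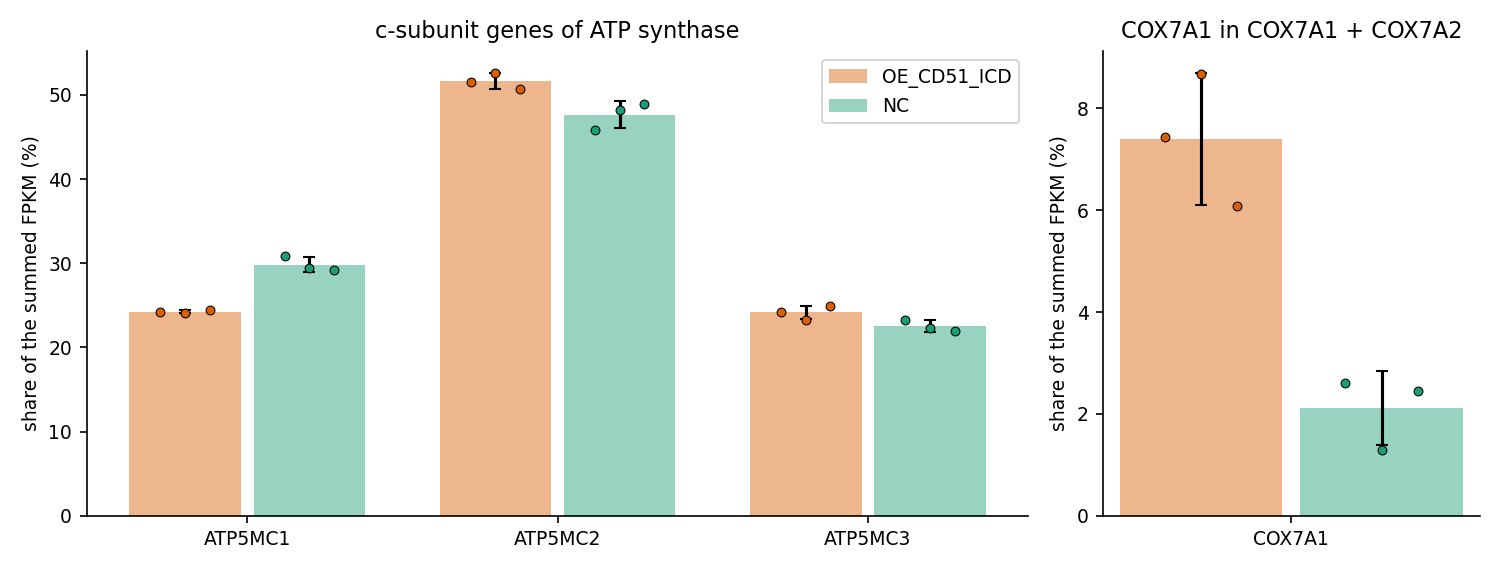
Share of alternative subunit genes in the summed FPKM of their set. Bars are means and error bars SD over 3 libraries per group, and points are libraries. ATP5MC1 makes up 24.2% of the c-subunit set in OE_CD51_ICD and 29.8% in NC, and COX7A1 makes up 7.40% of its pair in OE_CD51_ICD and 2.12% in NC.

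In complex V, 6 of 19 tested genes were lower, a share of 31.6% that was near the 25.8% of all tested genes. None was higher, beside 25.2% of all tested genes, and the median log2 fold change was -0.17. The strongest fall of all subunit genes was that of ATP5MC1 (ENSG00000159199, chromosome 17, 48892765 to 48895871, GRCh38), with 54.7, 51.3 and 64.9 CPM in OE_CD51_ICD, against 101, 94.1 and 93.6 CPM in NC. It was 0.593-fold of NC with no overlap and fell by 0.76 on the log2 scale (SE 0.09, adjusted p = 7.00e-08). ATP5MC1, ATP5MC2 and ATP5MC3 encode the same mature c subunit of the proton-turned ring with different import sequences. Reads from their alike coding stretches may have been split between them, since the authors' counting is not described, so the values of single c-subunit genes are less certain than their sum. ATP5MC2 had 178, 171 and 206 CPM in OE_CD51_ICD, against 229, 235 and 239 CPM in NC, and it fell by 0.34 on the log2 scale (SE 0.08, adjusted p = 9.46e-04). ATP5MC3 had 142, 129 and 172 CPM in OE_CD51_ICD, against 197, 184 and 182 CPM in NC, and it fell by 0.35 on the log2 scale (SE 0.09, adjusted p = 0.00176). The groups overlapped for none of the 3 genes. Their summed FPKM was 88.9 ± 11.4 in OE_CD51_ICD and 122 ± 1.29 in NC (SD, n = 3 each). Within that sum, ATP5MC1 took 24.2%, 24.1% and 24.4% in OE_CD51_ICD libraries 1 to 3, against 30.8%, 29.5% and 29.2% in NC libraries 1 to 3. ATP5MC2 took 51.6 ± 0.963% in OE_CD51_ICD and 47.7 ± 1.58% in NC. These shares depend on the listed gene lengths of 2615, 3991 and 6780 bases for ATP5MC1, ATP5MC2 and ATP5MC3. Whether the falls of the 3 genes differ was not tested.

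Among the 5 ATP5F1 genes, of the catalytic head and the central stalk, 2 were lower. ATP5F1B, the catalytic beta subunit, had 687, 673 and 738 CPM in OE_CD51_ICD, against 927, 959.7 and 982 CPM in NC. The groups did not overlap, and ATP5F1B fell by 0.45 on the log2 scale (SE 0.08, adjusted p = 1.21e-05). ATP5F1D, the delta subunit of the central stalk, had 119, 118 and 145 CPM in OE_CD51_ICD, against 178, 168 and 169 CPM in NC, and it fell by 0.43 on the log2 scale (SE 0.09, adjusted p = 1.08e-04) with no overlap. With the GC trend removed ATP5F1D was at -0.13 and did not pass (adjusted p = 0.0812). ATP5F1A, the alpha subunit that alternates with beta in the head, had 406, 412 and 441 CPM in OE_CD51_ICD, against 427, 452 and 450.5 CPM in NC. Its groups overlapped, and its log2 fold change was -0.08 (SE 0.08, adjusted p = 0.398). It was lower with the GC trend removed (-0.19, adjusted p = 0.0192) and with the trend with gene length removed (-0.30, adjusted p = 0.00242). The gamma and epsilon subunit genes ATP5F1C and ATP5F1E were at -0.20 and 0.12 and did not pass. Of the 11 other complex V genes tested, only ATP5PD, of the peripheral stalk, was lower (-0.30, adjusted p = 0.0219), a call that was lost without NC library 1 or OE_CD51_ICD library 2. ATP5IF1, the inhibitor of ATP hydrolysis, had 58.1, 50.8 and 56.7 CPM in OE_CD51_ICD, against 49.8, 51.04 and 50.96 CPM in NC. Its log2 fold change was 0.13 (SE 0.09, adjusted p = 0.271), and with each library's trend with gene length removed it was higher (0.26, adjusted p = 0.0138).

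**Figure D4:**
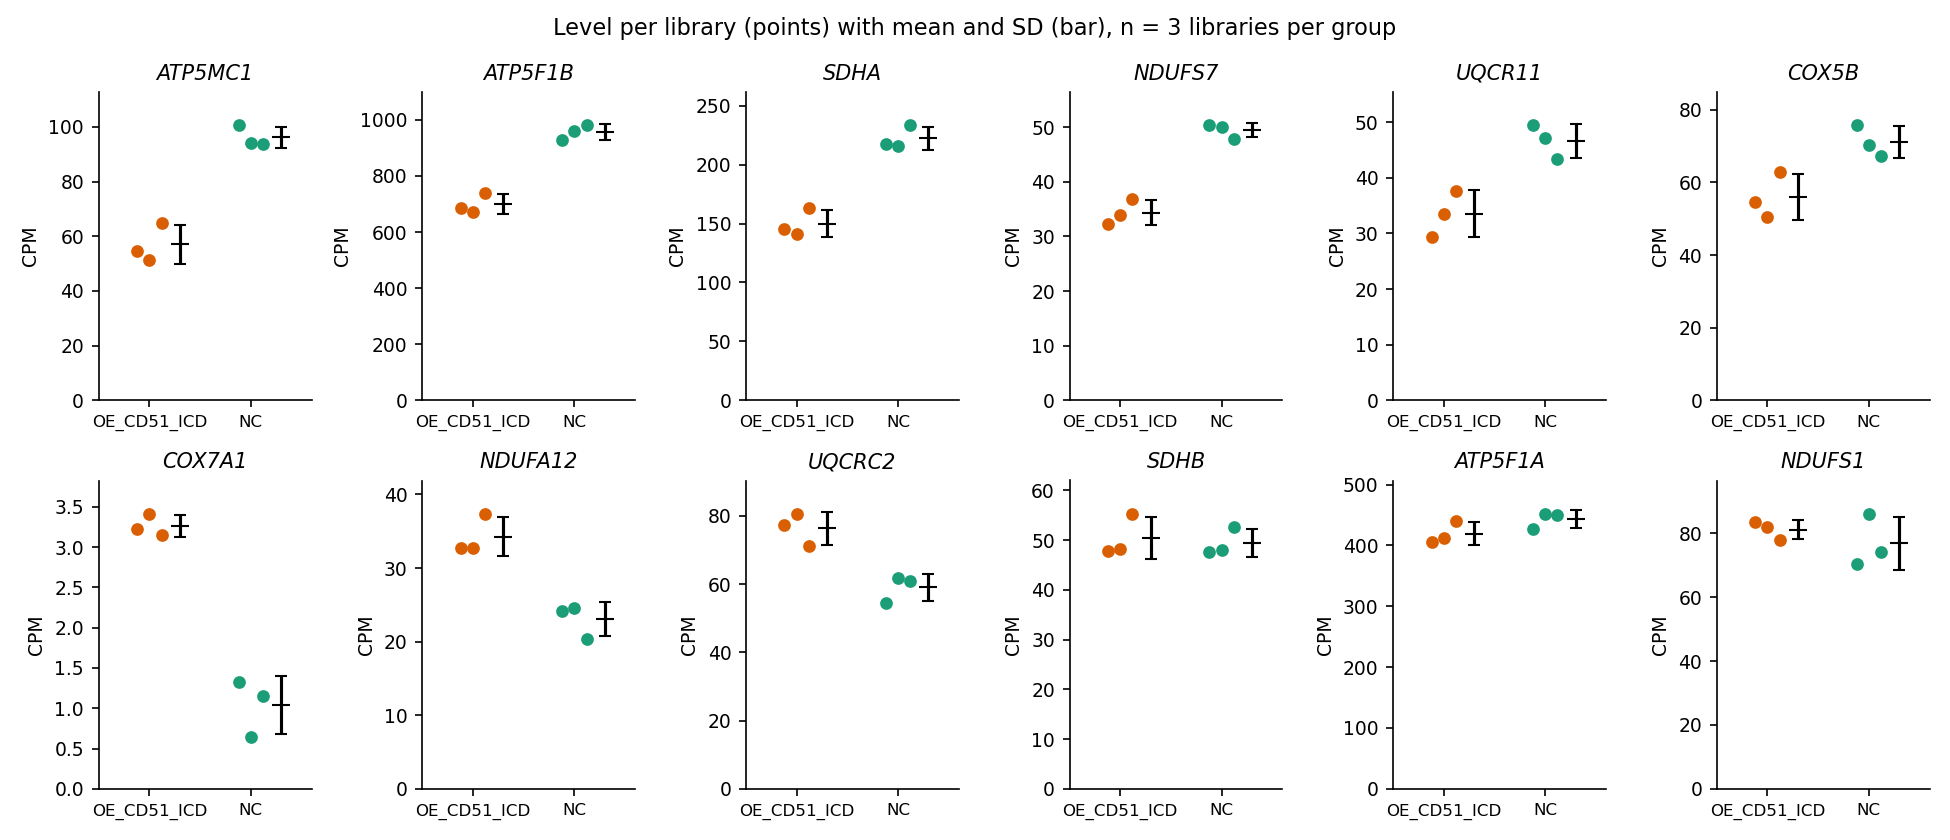
CPM of 12 subunit genes in each library. Points are libraries and the bar beside them is the mean with its SD over 3 libraries per group. For ATP5MC1, ATP5F1B, SDHA, NDUFS7, UQCR11 and COX5B the OE_CD51_ICD points lie below all NC points, for COX7A1, NDUFA12 and UQCRC2 they lie above them, and for SDHB, ATP5F1A and NDUFS1 the groups overlap.

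Position and base composition were set beside the calls. On chromosome 11, where 40.4% of all 792 tested genes were higher and 17.3% lower, none of the 7 tested subunit genes was higher and 1 was lower, with a median log2 fold change of -0.14 beside 0.21 for all genes there. On chromosome 19, where 38.9% of all 947 tested genes were lower and 15% higher, 7 of 10 tested subunit genes were lower and 1 was higher, with a median of -0.37 beside -0.18 for all genes there. When subunit genes were ordered by transcript GC content, 3 of the 26 with the lowest GC were lower, 11 of the 28 in between and 14 of the 26 with the highest GC. Calls of all tested genes were not counted within these GC ranges, so these counts have no matched background. Over the 80 genes, Spearman's rho of the log2 fold change with GC content was -0.32, and over 13781 tested genes with a GC value it was also -0.32. These correlations run across genes, which share the same 6 libraries and are not independent replicates. With each library's GC trend removed, 39 subunit genes were lower, of which 19 were among the 28, so 9 calls were lost and 20 were added. Lower genes then made up 48.75% of the subunit genes tested, beside 24.1% of all tested genes. Of 36 subunit genes that share at least 10% of their exon bases with another gene, 30 were tested and 11 were lower, and of the 50 other tested genes 17 were lower and 3 were higher.

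Genes around the complexes were read from lists chosen by function. The background for each list is all tested genes, of which 25.8% were lower and 25.2% were higher. Of 18 complex I assembly factors tested, 8 were lower and none was higher, with a median log2 fold change of -0.29. NDUFAF8 had 24.1, 19.5 and 30.04 CPM in OE_CD51_ICD, against 38.8, 38.2 and 35.7 CPM in NC, and it fell by 0.62 on the log2 scale (SE 0.12, adjusted p = 1.27e-04). DMAC1, which helps to build the distal membrane arm, fell by 0.51 on the log2 scale (SE 0.11, adjusted p = 1.86e-04). Of 7 genes for complex III assembly and cytochrome c1, 4 were lower and none was higher (median -0.58). CYC1, cytochrome c1 itself, had 127, 117 and 156 CPM in OE_CD51_ICD, against 207, 199.99 and 197 CPM in NC, and it fell by 0.60 on the log2 scale (SE 0.09, adjusted p = 1.95e-06). BCS1L, which inserts the Rieske protein, fell by 0.68 on the log2 scale (SE 0.12, adjusted p = 3.84e-05), and UQCC1, needed for cytochrome b, fell by 0.62 on the log2 scale (SE 0.10, adjusted p = 8.80e-06). Of 25 complex IV assembly factors tested, 10 were lower and none was higher (median -0.24), led by COA6, COX17 and COX14, of which the last 2 had groups that did not overlap. COA6, COX17 and COX14 stood at -0.63, -0.59 and -0.48 on the log2 scale, and each of these 3 calls was lost under at least 1 alternative. ATPAF1 and ATPAF2, which assemble the catalytic head of ATP synthase, were both lower, at -0.44 and -0.35. Of 4 complex II assembly factors, SDHAF3 was lower (-0.71, adjusted p = 0.0152).

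Of 15 genes for mobile electron carriers and ubiquinone synthesis, 7 were lower and none was higher (median -0.41). COQ8A, an atypical kinase of ubiquinone synthesis, had 14.3, 13.5 and 18.5 CPM in OE_CD51_ICD, against 42.99, 41.8 and 40.2 CPM in NC. No OE_CD51_ICD value overlapped an NC value, and COQ8A fell by 1.43 on the log2 scale (SE 0.12, adjusted p = 3.79e-11), more than any subunit gene. COQ2, which joins the ring of ubiquinone to its tail, had 7.70, 7.79 and 8.23 CPM in OE_CD51_ICD, against 15.7, 13.1 and 12.2 CPM in NC, and it fell by 0.79 on the log2 scale (SE 0.16, adjusted p = 1.16e-04). ETFB, of the electron transfer flavoprotein that feeds ubiquinone from fatty acid oxidation, fell by 0.72 on the log2 scale (SE 0.11, adjusted p = 2.62e-06). CYCS, cytochrome c, was lower as well, at -0.41. Of 17 genes listed for TCA cycle enzymes, a list that also holds pyruvate dehydrogenase genes, 9 were lower and 2 were higher (median -0.26). FH, fumarase, which acts on the product of SDHA, had 65.7, 73.3 and 76.7 CPM in OE_CD51_ICD, against 110.4, 115 and 103 CPM in NC, and it fell by 0.61 on the log2 scale (SE 0.09, adjusted p = 1.03e-06). MDH2, malate dehydrogenase, had 219.7, 197 and 239 CPM in OE_CD51_ICD, against 315, 287 and 310.4 CPM in NC, and it fell by 0.48 on the log2 scale (SE 0.08, adjusted p = 1.75e-05). SUCLG1, of succinyl-CoA ligase, rose by 0.42 on the log2 scale (SE 0.08, adjusted p = 9.11e-05), and PDHB, of pyruvate dehydrogenase, rose by 0.29 on the log2 scale (SE 0.09, adjusted p = 0.00627). Of the 13 messenger RNAs encoded in mitochondrial DNA, MT-ND1, MT-ND2 and MT-ND3, all complex I subunits, were lower (-0.34, -0.29 and -0.29). None was higher, the median was -0.15, and the share of lower genes lay below the 25.8% of all tested genes. NC library 3 was the highest for MT-ND1 and MT-ND2, and each of these 3 calls was lost under at least 1 alternative.

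**Figure D5:**
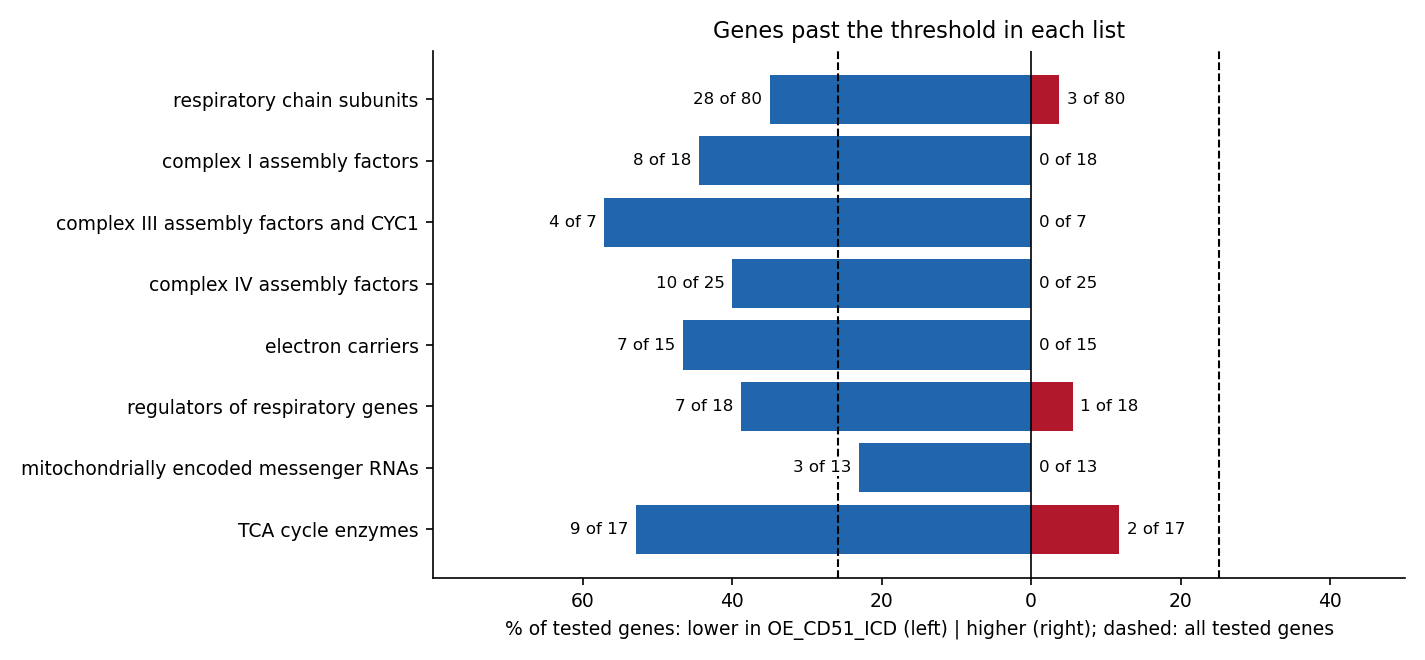
Share of tested genes past an adjusted p of 0.05 in each list. Bars to the left are genes lower in OE_CD51_ICD and bars to the right genes higher, with counts beside them, and dashed lines mark 25.8% lower and 25.2% higher among all tested genes. Higher genes number 3 of 80 among subunits, 2 of 17 in the list of TCA cycle enzymes and 1 of 18 among regulators. The list of TCA cycle enzymes also holds pyruvate dehydrogenase genes, and PDHB is among its higher genes.

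Of 18 regulators of respiratory genes tested, 7 were lower and 1 was higher (median -0.09). PPARGC1A, the coactivator PGC-1 alpha that is known to raise respiratory gene expression, had 2 counts over the OE_CD51_ICD libraries and 98 over the NC libraries. That is 0.0658, 0.0683 and 0 CPM in OE_CD51_ICD, against 2.31, 2.12 and 1.89 CPM in NC. The ratio of OE_CD51_ICD to NC was 0.0215 (exact 95% interval 0.00257 to 0.0799, which covers counting error only), and the test passed with an adjusted p of 1.97e-08. Its relative PPARGC1B was too low to test, at 0.132, 0.0683 and 0.429 CPM in OE_CD51_ICD, against 1.45, 0.566 and 0.946 CPM in NC. TWNK, the mitochondrial DNA helicase, had 17.2, 17.6 and 18.4 CPM in OE_CD51_ICD, against 33.2, 32.6 and 31.9 CPM in NC, and it fell by 0.88 on the log2 scale (SE 0.11, adjusted p = 1.62e-07). POLRMT, the mitochondrial RNA polymerase, had 85.7, 79.6 and 92.2 CPM in OE_CD51_ICD, against 141, 131 and 136 CPM in NC, and it fell by 0.67 on the log2 scale (SE 0.08, adjusted p = 1.03e-07). MYC fell by 0.66 on the log2 scale (SE 0.09, adjusted p = 2.44e-07), and NRF1, nuclear respiratory factor 1, had 10.3, 11.6 and 12.9 CPM in OE_CD51_ICD, against 16.03, 16.6 and 15.8 CPM in NC, falling by 0.48 on the log2 scale (SE 0.14, adjusted p = 0.00626). SP1, a general promoter factor, rose by 0.41 on the log2 scale (SE 0.10, adjusted p = 7.75e-04). TFAM, which packages mitochondrial DNA, GABPA and ESRRA had log2 fold changes of -0.19, 0.21 and 0.11 and did not pass, and ESRRG was at 0 counts.

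Of 9 tested genes linked to hypoxia and mitochondrial turnover, 4 were higher and 2 were lower (median 0.16). HIF1A, the hypoxia-inducible factor subunit, had 339.9, 409 and 284 CPM in OE_CD51_ICD, against 206, 161 and 145 CPM in NC. With no overlap between the groups, HIF1A rose by 1.01 on the log2 scale (SE 0.11, adjusted p = 6.48e-09). BNIP3L and BNIP3 encode receptors for the removal of mitochondria by autophagy. BNIP3L had 95.3, 98.5 and 86.2 CPM in OE_CD51_ICD, against 42.4, 39.1 and 40.01 CPM in NC, and BNIP3 rose by 0.88 on the log2 scale (SE 0.09, adjusted p = 5.63e-10). The groups of BNIP3L did not overlap, with an adjusted p of 3.46e-12. PDK1, the kinase that holds back pyruvate dehydrogenase, rose by 0.96 on the log2 scale (SE 0.13, adjusted p = 2.85e-07). LONP1, the matrix protease that degrades COX4I1 in hypoxia, had 201, 185 and 233 CPM in OE_CD51_ICD, against 339, 304 and 323 CPM in NC, and it fell by 0.64 on the log2 scale (SE 0.09, adjusted p = 2.86e-07). ISCU, the iron-sulfur scaffold, was lower at -0.27 (adjusted p = 0.0297).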

How the data were processed

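RNA was sequenced from 3 OE_CD51_ICD and 3 NC libraries of ARPE-19 cells, grouped by their titles. Per the labels' protocols, TRNzol reagent or a Quick-RNA kit was used for extraction, with no assignment to libraries, and a SMARTER kit for library preparation. The build is hg38 per the submitters' processing notes. Aligner, counter and strand setting: not given in the sources used here.

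The authors deposited whole-number gene counts and FPKM values, which equalled counts over gene length and over 1 constant per library (0.961 to 1.05 times its total). All 58735 genes had GENCODE 29 coordinates. Depth was 13616694 to 16934668 counts per library.

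For the counts, edgeR 4.0.16 was used under R 4.3.3 (filterByExpr, TMM scaling, glmQLFit, glmQLFTest, two-sided), and p-values were adjusted by Benjamini-Hochberg over 13787 genes. The script was tested on simulated data. Alternatives used DESeq2 1.42.0, limma 3.58.1, other scalings and filters, trend removal by GC content or gene length, a replicate block and each library left out. Promoters came from RefSeq.

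Members and lists were chosen with earlier results of these data known. Values per library were given for the 3 strongest falls and 2 strongest rises past the threshold in each complex, with complex I split into core and accessory genes, for the SDH genes, for alternative subunit genes, ATP5IF1 and COX7A2L, and for up to 3 genes in the leading direction of a list and 2 in the other. Other list genes (MYC, NRF1, TFAM, GABPA, ESRRA and CYCS) and further subunit genes with values (UQCRC1, ATP5F1A, NDUFS1) were chosen after their values were seen. Some genes that are counted are not reported by name here.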

Additional observations from a re-analysis of the deposited data

How the results depend on the processing

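Among the 28 lower subunit genes, ATP5F1B, ATP5MC1, ATP5MC2, NDUFS7, SDHA and UQCR11 were lower under all 23 alternatives run, and the 3 higher genes, NDUFA12, UQCRC2 and COX7A1, were higher under all 23. With the replicate number as a block, 28 subunit genes were lower and 3 higher. Same-numbered libraries were not paired by the labels, and the correlations of their deviations from the group means were -0.050, 0.0013 and 0.051. Leaving out 1 library at a time gave 18 to 37 lower subunit genes (22.5% to 46.3% of those tested, beside 20.9% to 25.9% of all genes), 7 to 15 in complex I (7 without OE_CD51_ICD replicate 1), 1 to 6 in complex III and 2 to 9 in complex IV. Limma on log2(FPKM + 1) without a filter, which tests more genes, gave 15 lower subunit genes (17.0% of those tested, beside 10.3% of all genes). Of these, 7 were in complex I, 2 in complex III and 1 in complex IV. Upper-quartile scaling gave 2 lower in complex III (23.3% of all genes were lower). Scaling by library size alone gave 9 in complex IV (29.4% of all genes were lower). With the GC trend removed, complex I had 2 higher genes. Complexes II, IV and V, with 4, 13 and 19 tested genes, then had 3, 9 and 11 lower genes, or 3, 9 and 10 with the block as well. Of all tested genes, 24.1% were lower and 25.1% higher with the GC trend removed, or 23.1% and 24.0% with the block. With the length trend removed, with or without the block, complex II had 2 lower genes and complex V had 1 higher gene, ATP5IF1. Leaving out genes that share at least 10% of exon bases, an alternative chosen after seeing the data, gave 17 lower of 50 tested. With the library total in place of the authors' constant, the summed FPKM in NC was 3234 rather than 3144. The log2 fold change of SDHB, 0.032, was -0.032 under library-size scaling and ran from -0.032 to 0.079 when 1 library was left out. UQCRC1 (-0.21) was at 0.035 with the GC trend removed, with or without the block, and NDUFS1 was at -0.12 and -0.17 with the GC and length trends removed, or -0.12 and -0.16 with the block as well. For 32 tested subunit genes followed singly, the alternatives gave 734 values, of which 653 kept direction and side of the threshold, 51 no longer passed it, 22 newly passed it and 8 changed sign. The calls of PDHB, SDHAF3, ATPAF1, ATPAF2, CYCS, NRF1 and ISCU were each lost under at least 1 alternative. The causes of these shifts were not tested. NDUFV2, NDUFA7 and 9 other genes stayed below the filter, and the part of depth and of shared exon bases in this was not tested.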
